A study of Mus musculus with 8 samples.

Results

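Calcium release, calcium reuptake and calmodulin signalling were followed through 36 genes in mouse hearts, taken 4 h after a single injection of digoxin or of solvent. The 36 were named from their functions, with earlier results of these data known. Of them, 33 were measured here by a probe set annotated to exactly 1 gene, out of 22180 genes in all. Itpr1, Calm2 and Calm3 had no such probe set and were not analysed here. Of the 33, 2 rose in digoxin hearts, where 0.947% of all genes rose: Rcan2, which encodes an inhibitor of calcineurin, to 1.21 times the vehicle level, and Stim1, which encodes the calcium sensor of the endoplasmic reticulum, to 1.26 times. None fell, and the core of the calcium cycle, including the ryanodine receptor gene Ryr2, the calcium pump gene Atp2a2 and the phospholamban gene Pln, did not pass the test.

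The mice were males of 8 to 10 weeks, labelled C57BL6JRj and described as C57BL6/J wild type in the growth protocol. The digoxin group (5 arrays) received 1 mg/kg intraperitoneally at ZT5 and was killed at ZT9, both in the light phase. The vehicle group (3 arrays) received at ZT5 the co-solvent alone, made of ethanol, propylene glycol, citric acid and sodium phosphate. The time point label of this group repeats the sacrifice phrase, with ZT5 and ZT9, and the design text gives ZT9 for all mice. That text counts 4 of these samples, of which 3 were analysed here. RNA from heart tissue was measured on the Affymetrix Mouse Gene 2.0 ST array. Digoxin inhibits the Na/K-ATPase, whose alpha-1 form is less sensitive to cardiac glycosides in rodents than in humans.

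In a cardiomyocyte each beat begins with calcium entry through L-type channels. This opens ryanodine receptors, which release the calcium stored on calsequestrin in the sarcoplasmic reticulum. The SERCA pump, held back by phospholamban, returns the calcium to the store, and plasma membrane pumps and the sodium-calcium exchanger move the rest out of the cell. Inhibition of the Na/K-ATPase raises cell sodium, which slows that exchanger and leaves more calcium in the store. Calmodulin carries the calcium signal to the kinase CaMKII and to the phosphatase calcineurin, which sends NFAT factors to the nucleus.

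The deposited log2 values have had a constant removed from each probe set. They give differences between arrays but no level, so genes cannot be ranked by abundance, and the heart's own marker genes could be followed but not checked for presence. Values on single arrays are listed in the order of the replicate numbers, which is taken to have no other meaning. A log2 change is digoxin minus vehicle, from limma fitted to all genes, and a gene passed the test at an adjusted p under 0.05. The tissue is a mixture of cell types, in which fewer cells of a type and less RNA per cell cannot be told apart.

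Over all genes, 302 of 22180 passed in limma, or 1.36%. In 8.16% of genes the values of the groups did not overlap, and 12.3% had an unadjusted p under 0.05. Vehicle replicate 3 stood apart, with an interquartile range of 0.216 over all probe sets, against 0.0924 and 0.107 on the other vehicle arrays. On the digoxin arrays this range was 0.0792 to 0.115. Digoxin replicate 4 carried a mean of 1.26 over 5 lymphocyte markers, against -0.069 to 0.021 on the other digoxin arrays and -0.0088 to 0.055 on the vehicle arrays. That mean came from the T cell genes Cd3e (2.85) and Cd3g (3.16), while the B cell genes Cd79a, Cd79b and Ms4a1 had 0.11, 0.087 and 0.11 on the same array. Over the calcium genes, digoxin replicate 4 was the lowest digoxin array in 14 of 33, and vehicle replicate 3 the lowest vehicle array in 20 of 33. The same was not counted over all genes, so nothing particular to the calcium genes is read from it. Without vehicle replicate 3, 19 of the 33 log2 changes moved by over 1.5 times or changed sign, and 13 did without digoxin replicate 4. Rcan2, Stim1 and Itpr2 were in neither count. Changes near 0 enter such counts by small shifts, as Atp2a2 did in both. Of the 26 other pathway genes named further below, 11 moved in this way without vehicle replicate 3 and 0 without digoxin replicate 4. The share over all genes was not computed.

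Of the 33 calcium and calmodulin genes, 2 rose and 0 fell, or 6.06% passing. Among all genes, 0.947% rose and 1.36% passed in either direction. The count of 2 is small, and it was 1 in the 2 fits without digoxin replicate 4 or without vehicle replicate 3 and 0 in each of the other 6 fits that left out 1 array. An unadjusted p under 0.05 was found for 3 genes, against 12.3% of all genes. In 4 of 33 (12.1%) the groups did not overlap, against 8.16% of all genes. Changes had both signs, 19 positive and 14 negative, with a median of 0.011 and a range of -0.24 to 0.33. Over all genes 9852 changes were positive and 12328 negative, and the median was -0.011. The median size of a change, whatever its sign, was 0.080 for the calcium genes and 0.066 for all genes.

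**Figure D1:**
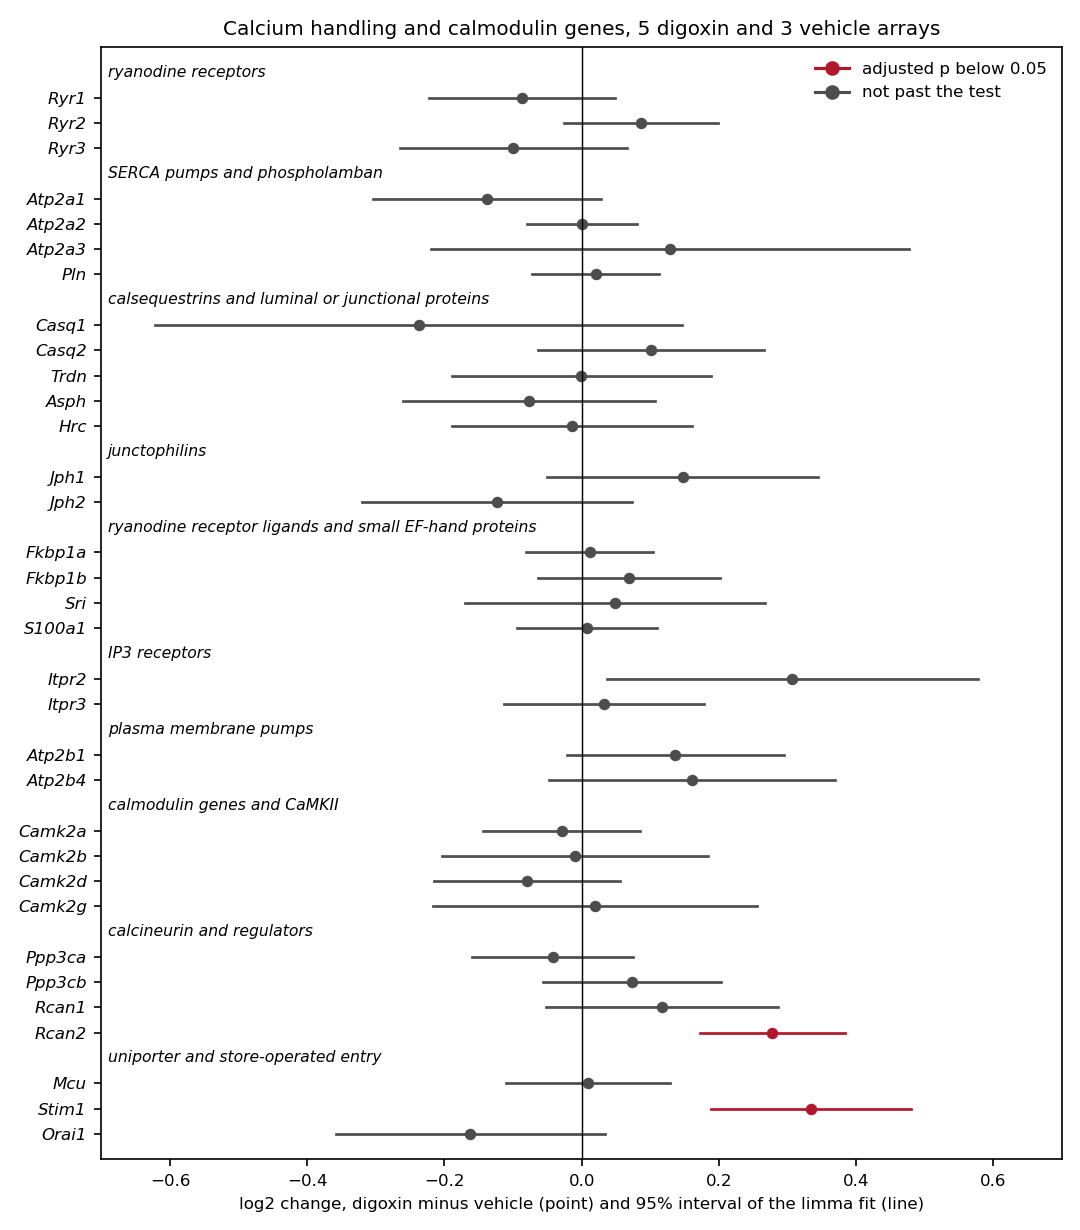
Log2 change, digoxin minus vehicle, of the 33 measured calcium and calmodulin genes, grouped by role, with points for the limma estimate and lines for its 95% interval (5 digoxin and 3 vehicle arrays). The intervals of Rcan2, Stim1 and Itpr2 lie above 0, those of the other 30 genes span 0, and red marks Rcan2 and Stim1, the genes with an adjusted p under 0.05.

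The 2 genes that rose act at different points. Rcan2 encodes a member of the regulators of calcineurin, small proteins that bind the phosphatase and inhibit it. Its centred log2 values were 0.073, 0.14, 0.15, 0.038 and 0.12 in digoxin hearts, against -0.17, -0.11 and -0.24 in vehicle hearts. Every digoxin array lay above every vehicle array. The means were 0.10 ± 0.046 (SD, n = 5) in the digoxin group and -0.17 ± 0.064 (SD, n = 3) in the vehicle group. The log2 change was 0.28 (SE 0.047, 95% interval 0.17 to 0.38, adjusted p = 0.0272 in limma), a rise to 1.21 times the vehicle level with an interval of 1.13 to 1.31 times. When single arrays were dropped, the change was lowest at 0.24 (vehicle replicate 3 dropped) and highest at 0.31 (vehicle replicate 2 dropped). The call held without digoxin replicate 4 (adjusted p = 0.0376) or vehicle replicate 3 (adjusted p = 0.0455), and it ended when any of digoxin replicates 1, 2, 3 and 5 or of vehicle replicates 1 and 2 was dropped. The highest of these adjusted p values in limma was 0.0837, without digoxin replicate 2.

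The promoter windows of the calcineurin regulators are shown because Rcan2 rose while its relative Rcan1, known as a gene that calcineurin and NFAT switch on in heart muscle, did not pass. Each holds 300 bases, from before a transcription start to shortly after it, 5′ to 3′ on the gene's strand, from RefSeq on GRCm38.p6. Capitals mark the NFAT core GGAAA or its reverse complement TTTCC, searched on both strands. The Rcan2 window is that of the most upstream of 3 starts, at chr17:43801102-43801401 on the plus strand. The Rcan1 window is that of the downstream of 2 starts, at chr16:92400029-92400328 on the minus strand.
Rcan2: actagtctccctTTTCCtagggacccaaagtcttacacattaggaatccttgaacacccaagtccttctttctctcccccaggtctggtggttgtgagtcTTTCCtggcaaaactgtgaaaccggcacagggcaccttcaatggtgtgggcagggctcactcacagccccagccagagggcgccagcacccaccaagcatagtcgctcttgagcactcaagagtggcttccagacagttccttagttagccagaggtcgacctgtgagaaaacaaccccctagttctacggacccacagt
Rcan1: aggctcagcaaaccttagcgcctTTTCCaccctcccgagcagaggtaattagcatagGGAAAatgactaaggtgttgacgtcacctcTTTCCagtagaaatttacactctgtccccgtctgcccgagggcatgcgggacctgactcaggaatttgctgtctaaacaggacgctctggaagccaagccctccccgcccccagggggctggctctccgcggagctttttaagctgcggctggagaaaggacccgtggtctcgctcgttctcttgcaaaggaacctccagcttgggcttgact

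The Rcan2 window held 2 NFAT cores, and 26.7% of 32817 promoter windows of this length held at least as many. The windows at its other starts, chr17:43801601-43801900 and chr17:43952749-43953048, held 0. The Rcan1 window held 3 cores, where 9.41% of windows held at least as many, and 1 cyclic AMP response element with the letters TGACGTCA, which 1.79% of windows hold. Its upstream start, at chr16:92466120-92466419, had 0 NFAT cores and 1 E-box, CACGTG. These matches are a description of letters, not of binding.

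Rcan1 had values of 0.092, -0.0043, 0.088, -0.16 and 0 in digoxin hearts, against -0.18, 0.025 and -0.19 in vehicle hearts. The groups overlapped, through digoxin replicate 4 on the low side and vehicle replicate 2 on the high side. Its log2 change was 0.12 (SE 0.074, 95% interval -0.052 to 0.29, adjusted p = 0.571 in limma), and the interval allows a level of 0.964 to 1.22 times that of vehicle hearts. Without digoxin replicate 4 its change was 0.16, and the adjusted p was 0.401. The calcineurin catalytic subunit genes themselves stood at -0.042 (95% interval -0.16 to 0.075) for Ppp3ca and 0.073 (95% interval -0.056 to 0.20) for Ppp3cb. Of these 4 genes Rcan2 alone passed. The remaining catalytic subunit gene, Ppp3cc, read from the wider pathway lists, stood at 0.31 with a 95% interval of -0.022 to 0.64 (adjusted p = 0.438 in limma). It stood at 0.11 without vehicle replicate 3.

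Stim1 encodes the protein that senses calcium loss from the endoplasmic or sarcoplasmic reticulum and opens ORAI channels in the plasma membrane. Its values were 0.21, 0.24, 0.31, 0.41 and 0.29 in digoxin hearts, against 0, 0.038 and -0.17 in vehicle hearts. All digoxin arrays lay above all vehicle arrays, and digoxin replicate 4 was the highest. The means were 0.29 ± 0.077 (SD, n = 5) in the digoxin group and -0.044 ± 0.11 (SD, n = 3) in the vehicle group. The log2 change was 0.33 (SE 0.064, 95% interval 0.19 to 0.48, adjusted p = 0.0476 in limma), or 1.26 times the vehicle level with an interval of 1.14 to 1.39 times. This adjusted p was close to the threshold, and leaving out any 1 of the 8 arrays lost the call. The adjusted p then lay between 0.0709 (without digoxin replicate 1) and 0.126 (without digoxin replicate 5). The change itself stayed between 0.27 and 0.38 in those fits. Without digoxin replicate 4 and vehicle replicate 3 together it was 0.24 (adjusted p = 0.0539 in limma).

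The promoter window of Stim1 is printed for comparison with those of the calcineurin regulators. It lies at chr7:102267569-102267868 on the plus strand.
Stim1: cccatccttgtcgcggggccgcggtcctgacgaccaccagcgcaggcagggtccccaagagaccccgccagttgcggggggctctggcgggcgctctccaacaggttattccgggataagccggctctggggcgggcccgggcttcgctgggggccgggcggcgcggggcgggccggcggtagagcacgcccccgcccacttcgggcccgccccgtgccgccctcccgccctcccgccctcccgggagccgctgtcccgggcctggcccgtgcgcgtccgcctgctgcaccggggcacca
It held no NFAT core, glucocorticoid receptor hexamer AGAACA, E-box CACGTG or TGACGTCA on either strand. Over the calcium genes, 25 of 33 had an entry in the promoter table, with 30 windows in all. Of the 30, 15 held an NFAT core and 3 the hexamer, against 61.3% and 19.0% of all promoter windows.

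**Figure D2:**
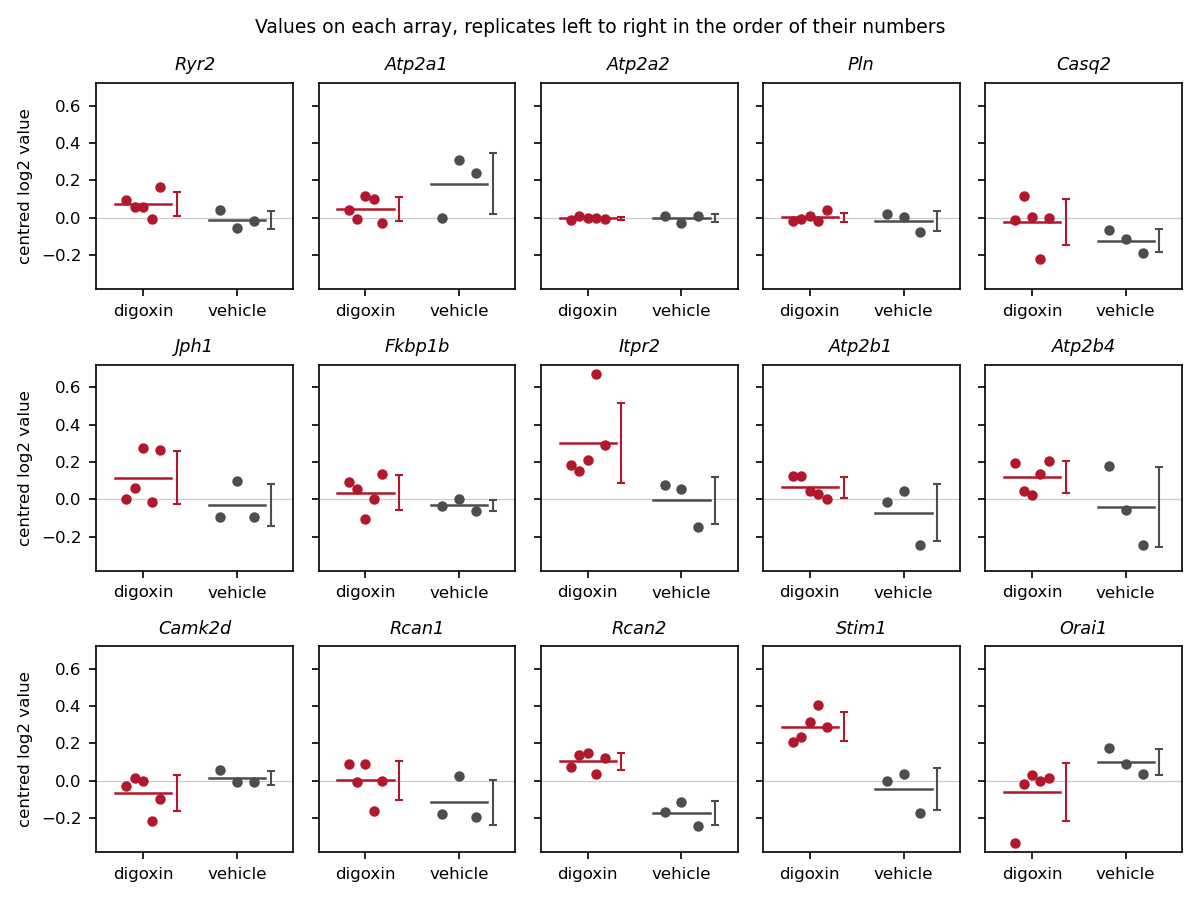
Centred log2 values of 15 calcium and calmodulin genes on each of the 5 digoxin arrays (left in each panel) and 3 vehicle arrays (right), with a line for the group mean and a bar for ± 1 SD. The groups are apart in Rcan2, Stim1, Itpr2 and Orai1 and overlap in the other 11 panels, and all panels share 1 scale, on which Atp2a2 and Pln barely vary.

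Orai1, which encodes the plasma membrane channel that STIM1 opens, had a lower mean in digoxin hearts. Its values were -0.33, -0.018, 0.034, 0 and 0.015 in digoxin hearts, against 0.17, 0.092 and 0.039 in vehicle hearts. The groups did not overlap, but the highest digoxin value of 0.034 and the lowest vehicle value of 0.039 were nearly equal. Digoxin replicate 1 lay far below the other 4 digoxin arrays. The log2 change was -0.16 (SE 0.086, 95% interval -0.36 to 0.034, adjusted p = 0.499 in limma), which did not pass. It was -0.094 without digoxin replicate 1. Mcu, the pore of the mitochondrial calcium uniporter, stood at 0.0086 (95% interval -0.11 to 0.13).

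Among the release channels, Ryr2, the ryanodine receptor of heart muscle, had values of 0.097, 0.056, 0.059, -0.0060 and 0.17 in digoxin hearts, against 0.040, -0.056 and -0.019 in vehicle hearts. Digoxin replicate 4 fell within the vehicle range, and the other 4 digoxin arrays lay above it. The log2 change was 0.086 (SE 0.049, 95% interval -0.026 to 0.20, adjusted p = 0.530 in limma), which allows a level of 0.982 to 1.15 times that of vehicle hearts. Ryr1, the skeletal muscle form, stood at -0.087, with its 2 probe sets at -0.086 and -0.088, and at -0.015 without vehicle replicate 3. Ryr3 stood at -0.10 (95% interval -0.26 to 0.066). In both genes 1 vehicle array was highest of all, replicate 3 for Ryr1 at 0.21 and replicate 1 for Ryr3 at 0.28.

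Itpr2 encodes the inositol trisphosphate (IP3) receptor that predominates in cardiomyocytes, a release channel opened by IP3. It had values of 0.18, 0.15, 0.21, 0.67 and 0.29 in digoxin hearts, against 0.078, 0.055 and -0.15 in vehicle hearts. The groups did not overlap, and digoxin replicate 4 lay far above the rest. The means were 0.30 ± 0.21 (SD, n = 5) in the digoxin group and -0.0054 ± 0.13 (SD, n = 3) in the vehicle group. The log2 change was 0.31 (SE 0.12, 95% interval 0.037 to 0.58, adjusted p = 0.340 in limma), nearly the size of that of Stim1 with a wider error, and it did not pass. It was 0.21 without digoxin replicate 4 (adjusted p = 0.261) and 0.14 without that array and vehicle replicate 3 (adjusted p = 0.247). On digoxin replicate 4 the lymphocyte mean was 1.26 and Itpr2 was 0.67. Of the lymphocyte markers, Cd3e and Cd3g alone were high there. It was also the highest digoxin array in the mean of the adipocyte (0.55), atrial (1.53), macrophage (0.22) and endothelial (0.043) markers. The part of any of these markers in the Itpr2 value was not tested, and the change without the array is the one given above. Itpr3 stood at 0.033 (95% interval -0.11 to 0.18), with probe sets at 0.12 and -0.053.

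In reuptake, Atp2a2, which encodes SERCA2, the calcium pump of the cardiac sarcoplasmic reticulum, had the narrowest spread between arrays of the 33 genes. It had values of -0.010, 0.0093, -0.0019, 0 and -0.0055 in digoxin hearts, against 0.012, -0.028 and 0.011 in vehicle hearts. All 8 arrays lay within a narrow band, and the groups overlapped. The log2 change rounds to 0 with an SE of 0.035 and a 95% interval of -0.080 to 0.080, which is 0.946 to 1.06 times the vehicle level. The pooled SD between arrays of a group was 0.0144, at the 0.559 percentile of all genes. Pln, which encodes the SERCA inhibitor phospholamban, had values of -0.019, -0.0041, 0.0089, -0.018 and 0.044 in digoxin hearts, against 0.022, 0.0020 and -0.078 in vehicle hearts. The digoxin values lay within the vehicle range but for replicate 5. The change was 0.020 (SE 0.041, 95% interval -0.073 to 0.11), and -0.0099 without vehicle replicate 3.

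The SERCA pumps of other tissues varied more. Atp2a1, the pump of fast skeletal muscle, had values of 0.044, -0.0082, 0.12, 0.099 and -0.025 in digoxin hearts, against 0, 0.31 and 0.24 in vehicle hearts. Vehicle replicates 2 and 3 lay above every digoxin array and vehicle replicate 1 among them. The change was -0.14 (SE 0.073, 95% interval -0.30 to 0.029, adjusted p = 0.499 in limma). Atp2a3, the pump of blood and endothelial cells, stood at 0.13 (95% interval -0.22 to 0.48). Its value was 0.49 on digoxin replicate 4. Its change was 0.032 without that array and -0.029 without vehicle replicate 3.

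On the luminal side, Casq2 encodes cardiac calsequestrin, which buffers calcium in the store. Its values were -0.0096, 0.12, 0.0069, -0.22 and 0 in digoxin hearts, against -0.067, -0.11 and -0.19 in vehicle hearts. Digoxin replicate 4 was the lowest of all arrays, and the other 4 digoxin arrays lay above all vehicle arrays. The change was 0.10 (SE 0.072, 95% interval -0.063 to 0.27, adjusted p = 0.618 in limma). Casq1, the skeletal form, had the largest spread of the group, with values from -0.50 to 0.29 in digoxin hearts and from 0.13 to 0.36 in vehicle hearts. Its change of -0.24 had a 95% interval of -0.62 to 0.15. The junctional protein genes Trdn (triadin), Asph (whose products include junctin) and Hrc (the histidine-rich calcium-binding protein) lay between -0.076 and -0.00040. Of these, Asph averaged 2 probe sets that differed, at -0.26 (SE 0.17) and 0.10 (SE 0.093), and stood at -0.011 without vehicle replicate 3.

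The junctophilins hold the plasma membrane and the sarcoplasmic reticulum together, and their genes lay on opposite sides of vehicle. Jph1 had values of 0, 0.062, 0.27, -0.015 and 0.26 in digoxin hearts, against -0.095, 0.099 and -0.096 in vehicle hearts. The groups overlapped around vehicle replicate 2. The change was 0.15 (SE 0.087, 95% interval -0.051 to 0.34, adjusted p = 0.539 in limma). Jph2, the main junctophilin of the heart, stood at -0.12 (SE 0.086, 95% interval -0.32 to 0.073), and at -0.22 without vehicle replicate 3. Neither gene passed.

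Regulators bound to the ryanodine receptor did not pass. Fkbp1b, which encodes the immunophilin calstabin-2 (FKBP12.6), had values of 0.095, 0.055, -0.11, 0 and 0.13 in digoxin hearts, against -0.035, 0 and -0.063 in vehicle hearts. The digoxin arrays reached both above and below the vehicle arrays. The change was 0.068 (SE 0.058, 95% interval -0.064 to 0.20, adjusted p = 0.677 in limma). Its relative Fkbp1a stood at 0.011 (95% interval -0.080 to 0.10), the sorcin gene Sri at 0.049 (95% interval -0.17 to 0.27) and S100a1, an EF-hand protein gene that enhances SERCA and ryanodine receptor function, at 0.0078 (95% interval -0.094 to 0.11).

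The genes of the plasma membrane calcium pumps had higher means in digoxin hearts and did not pass, and the size of both differences rested on vehicle replicate 3. Atp2b1, which encodes PMCA1, had values of 0.12, 0.13, 0.043, 0.030 and 0 in digoxin hearts, against -0.013, 0.044 and -0.25 in vehicle hearts. Vehicle replicate 3 was the lowest array, and vehicle replicate 2 lay among the digoxin arrays. The change was 0.14 (SE 0.070, 95% interval -0.022 to 0.29, adjusted p = 0.477 in limma), and 0.049 without vehicle replicate 3. Atp2b4, which encodes PMCA4, had values of 0.19, 0.044, 0.022, 0.13 and 0.20 in digoxin hearts, against 0.18, -0.058 and -0.25 in vehicle hearts. Vehicle replicate 1 lay near the top of the digoxin range and vehicle replicate 3 far below it. The change was 0.16 (SE 0.092, 95% interval -0.048 to 0.37, adjusted p = 0.530 in limma), and 0.058 without vehicle replicate 3.

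The CaMKII genes encode the kinase that phosphorylates the ryanodine receptor and phospholamban. Camk2d, the main cardiac form, had values of -0.026, 0.015, 0, -0.22 and -0.099 in digoxin hearts, against 0.056, -0.0071 and -0.0051 in vehicle hearts. Digoxin replicate 4 was the lowest and vehicle replicate 1 the highest, and the rest overlapped. The change was -0.080 (SE 0.059, 95% interval -0.21 to 0.055, adjusted p = 0.631 in limma), or 0.862 to 1.04 times the vehicle level, and it was -0.042 without digoxin replicate 4. Camk2a stood at -0.029, Camk2b at -0.0096 and Camk2g at 0.020, each with an interval that spans 0.

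A gene that did not pass may still have changed, and the intervals give the sizes left possible by these arrays. The 95% interval lay within a 1.25-fold change in either direction for 25 of 33 calcium genes (75.8%) and for 73.8% of all genes. It lay within 1.5-fold for 32 of 33 (97.0%), against 96.1% of all genes, and within 2-fold for all 33, against 99.4%. The widest bounds were 0.650 times vehicle for Casq1 and 1.49 times for Itpr2. These fold limits were picked after the values were seen.

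**Figure D3:**
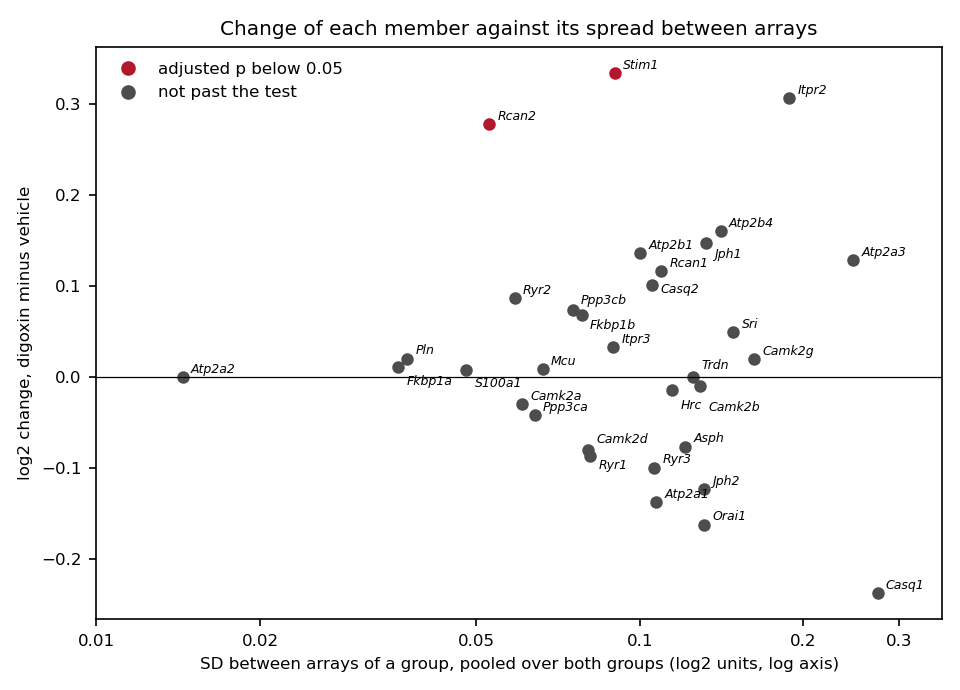
Log2 change, digoxin minus vehicle (vertical axis), of each of the 33 genes against its SD between arrays of a group, pooled over both groups (horizontal log axis, log2 units). Atp2a2 lies at the far left with an SD of 0.0144, Casq1 at the far right, and Itpr2 has a change close to that of Stim1 at a larger SD.

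Partners of a complex or cycle were compared as the difference between the genes on each array. The centring constants remain in the group means of such a difference and cancel between the groups. Pln minus Atp2a2, the inhibitor against its pump, was 0.0040 ± 0.028 (SD, n = 5) in the digoxin group and -0.016 ± 0.064 (SD, n = 3) in the vehicle group. The difference of 0.020 had an exact permutation p of 0.589, and 0.786 after adjustment over the 4 pairs compared. Casq2 minus Ryr2 differed by 0.015 and Fkbp1b minus Ryr2 by -0.018, each with an exact permutation p of 0.786 after adjustment. Jph2 minus Ryr2 was -0.075 ± 0.093 (SD, n = 5) in the digoxin group and 0.14 ± 0.17 (SD, n = 3) in the vehicle group. The difference of -0.21 had an exact two-sided permutation p of 0.0536, and 0.214 after adjustment, where 0.0179 is the smallest unadjusted p that 56 assignments allow. No pair passed.

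The wider calcium pathway was read from 10 further lists, with 114 of 122 genes measured. Of these, 1 rose and 0 fell (0.877%, against 1.36% of all genes). There were 57 positive and 57 negative changes, against 9852 and 12328 over all genes. The gene that rose was Tmem38b, which encodes TRIC-B, a potassium channel of the endoplasmic and sarcoplasmic reticulum that balances charge during calcium release. Its values were 0.39, 0.33, 0.45, 0.28 and 0.54 in digoxin hearts, against -0.11, 0.050 and -0.092 in vehicle hearts. The groups were far apart for this gene, with means of 0.40 ± 0.10 (SD, n = 5) in the digoxin group and -0.052 ± 0.089 (SD, n = 3) in the vehicle group. The log2 change was 0.45 (SE 0.069, 95% interval 0.29 to 0.61, adjusted p = 0.0179 in limma), or 1.37 times the vehicle level with an interval of 1.23 to 1.52 times. The call held in 6 of 8 fits with 1 array left out, and was lost without digoxin replicate 3 (adjusted p = 0.0592) or vehicle replicate 1 (adjusted p = 0.0612).

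**Figure D4:**
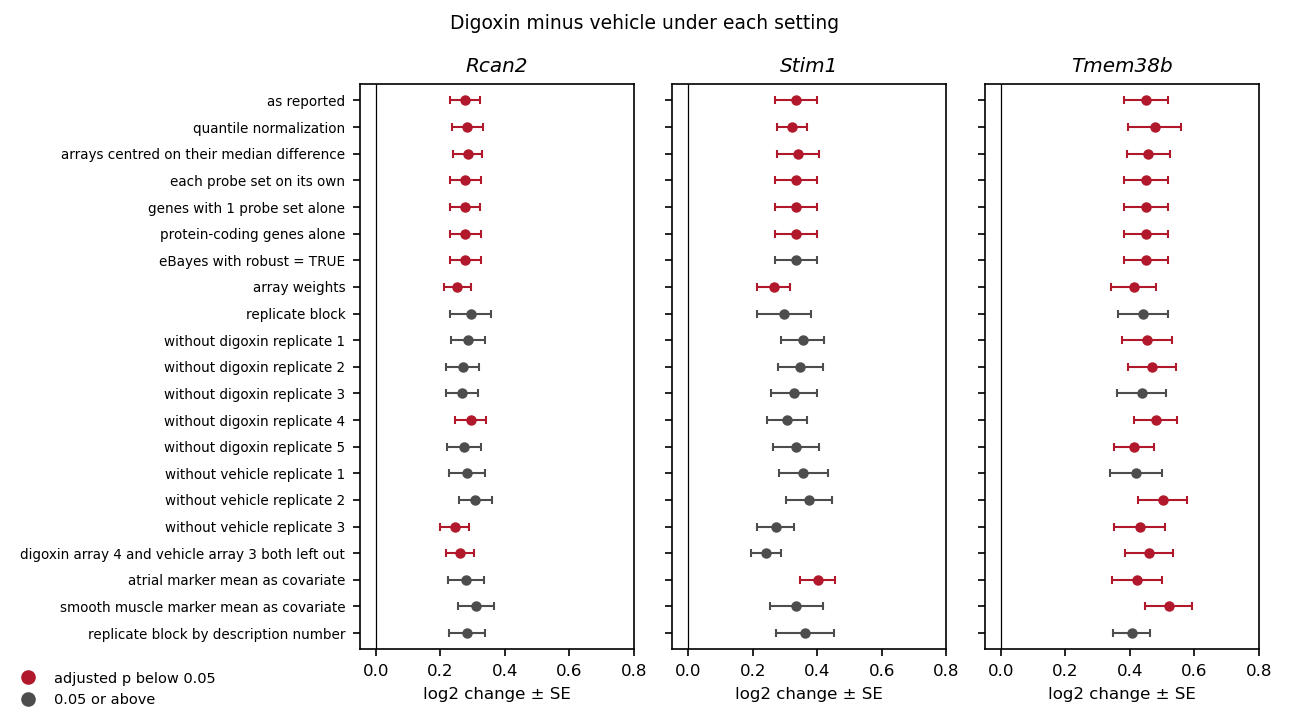
Log2 change ± SE of Rcan2, Stim1 and Tmem38b, digoxin minus vehicle, as reported and under each alternative, with red for an adjusted p under 0.05 in limma. All estimates lie above 0 in every setting shown, while the side of the threshold changes, most often for Stim1.

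In the list of IP3 receptor regulation and IP3 production, 8 of 14 genes had an unadjusted p under 0.05, against 12.3% of all genes, but none passed. In 5 of the 14 genes the groups did not overlap, against 8.16% of all genes. The list was chosen with earlier results of these data known, so these shares are not an independent finding about IP3 genes. Plcb4, which encodes a phospholipase C that makes IP3, came nearest to passing. Its values were 0.29, 0.24, 0.18, 0.20 and 0.23 in digoxin hearts, against -0.095, 0.011 and -0.32 in vehicle hearts. The groups did not overlap, and vehicle replicate 3 was the lowest array. The change was 0.36 (SE 0.071, 95% interval 0.20 to 0.52, adjusted p = 0.0508 in limma), and it passed without vehicle replicate 2 (adjusted p = 0.0385) or vehicle replicate 3 (adjusted p = 0.0390). Ahcyl1, which encodes the IP3 receptor inhibitor IRBIT, stood at 0.19 (SE 0.047, adjusted p = 0.112 in limma). The remaining genes with an unadjusted p under 0.05 are named after their values were seen. The phospholipase C genes Plcg1 (0.31) and Plcb1 (0.23) and the scaffold gene Homer1 (0.31) were on the higher side. Without vehicle replicate 3, Plcb1 stood at 0.11 and Homer1 at 0.14. The IP3 kinase gene Itpkb (-0.25), Mrvi1 (-0.22), whose product IRAG1 restrains the IP3 receptor, and the phospholipase C gene Plcb3 (-0.12) were on the lower side. The adjusted p values of these 6 genes ran from 0.132 to 0.404, and the whole list had 7 positive and 7 negative changes.

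Elsewhere in the pathway the genes of smallest p did not pass. In the store-operated entry list these were Stimate (0.20, adjusted p = 0.238 in limma), which encodes a partner of STIM1 at junctions with the plasma membrane, and Tmem178 (0.24, adjusted p = 0.271). Among calcineurin subunits, inhibitors and NFAT factors they were Ppp3cc, given above, and Nfatc4 (-0.25, adjusted p = 0.442). Among calmodulin-binding proteins they were the kinase gene Camk1g (-0.17, adjusted p = 0.257) and Pcp4 (-0.20, adjusted p = 0.269), which encodes a modulator of calmodulin. Nearer to the beat itself, the channel subunit gene Cacnb2 stood at -0.10 and the exchanger gene Slc24a3 at 0.097, the smallest p values of trigger entry and exchange. Clcc1, an endoplasmic reticulum channel gene, stood at 0.12, and the pump genes Atp2b3 and Atp2c1 at -0.039 and 0.081. In mitochondria, the uniporter regulator gene Micu3 stood at 0.22 and the exchanger gene Slc8b1 at -0.14. Among regulators of phosphorylation and buffers, Ppp1r3a stood at 0.17, the anchoring protein gene Akap7 at 0.15, S100a11 at -0.33 and Pdcd6 at 0.17. Those given without an adjusted p had values between 0.263 and 0.844. Several of these sizes rested on vehicle replicate 3. Without it, Micu3 stood at 0.031, Pdcd6 at 0.064, Clcc1 at 0.061, Stimate at 0.13, Nfatc4 at -0.15 and Pcp4 at -0.12, and Atp2b3 (0.020) and Atp2c1 (-0.052) changed sign.

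Markers of other cell types moved across the arrays beside these results. The mean of 9 atrial cardiomyocyte markers was 0.37, -0.20, 0.87, 1.53 and -0.32 in digoxin hearts, against 1.98, 1.50 and 0.16 in vehicle hearts. Of the 9, 8 were lower in digoxin hearts on average, and Kcna5 rose. The atrial marker Sln, which encodes the SERCA inhibitor sarcolipin, spanned -1.05 to 2.75 in digoxin hearts and 0 to 3.73 in vehicle hearts. It stood at -1.47 with a 95% interval of -3.98 to 1.04, so no change in it could be read. With the atrial mean as a covariate, an alternative added after the data were seen, Stim1 stood at 0.40 (adjusted p = 0.0134 in limma), Itpr2 at 0.44 (adjusted p = 0.0709) and Rcan2 at 0.28 (adjusted p = 0.0516).

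The mean of 8 smooth muscle and pericyte markers was 0.43, 0.21, 0.019, 0.34 and 0.085 in digoxin hearts, against 0.14, 0.0007 and -0.0018 in vehicle hearts. The groups overlapped, 7 of the 8 markers were higher in digoxin hearts on average, and none passed. With this mean as a covariate, also added later, Stim1 stood at 0.34 (adjusted p = 0.197 in limma) and Rcan2 at 0.31 (adjusted p = 0.0764), so the sizes stayed and the calls were lost. The mean of 8 skeletal muscle markers was 0.19 on vehicle replicate 3, against -0.081 to 0.047 on the digoxin arrays and -0.030 and 0.015 on the other vehicle arrays. Its part in the values of Ryr1, Atp2a1 and Casq1 was not tested. Of 8 endothelial markers 2 passed (25%, against 1.36% of all genes), Esam at 0.46 and Eng at -0.47. This list had 4 positive and 4 negative changes. Of 10 ventricular cardiomyocyte markers none passed, with 4 positive and 6 negative changes. In 2 of those 10 the groups did not overlap (20%, against 8.16% of all genes), Myl2 at -0.28 and Kcnj2 at -0.50. The part of these markers in the calcium genes was not tested. A level of 0 has no special meaning in centred values, so no marker can be called absent.

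**Figure D5:**
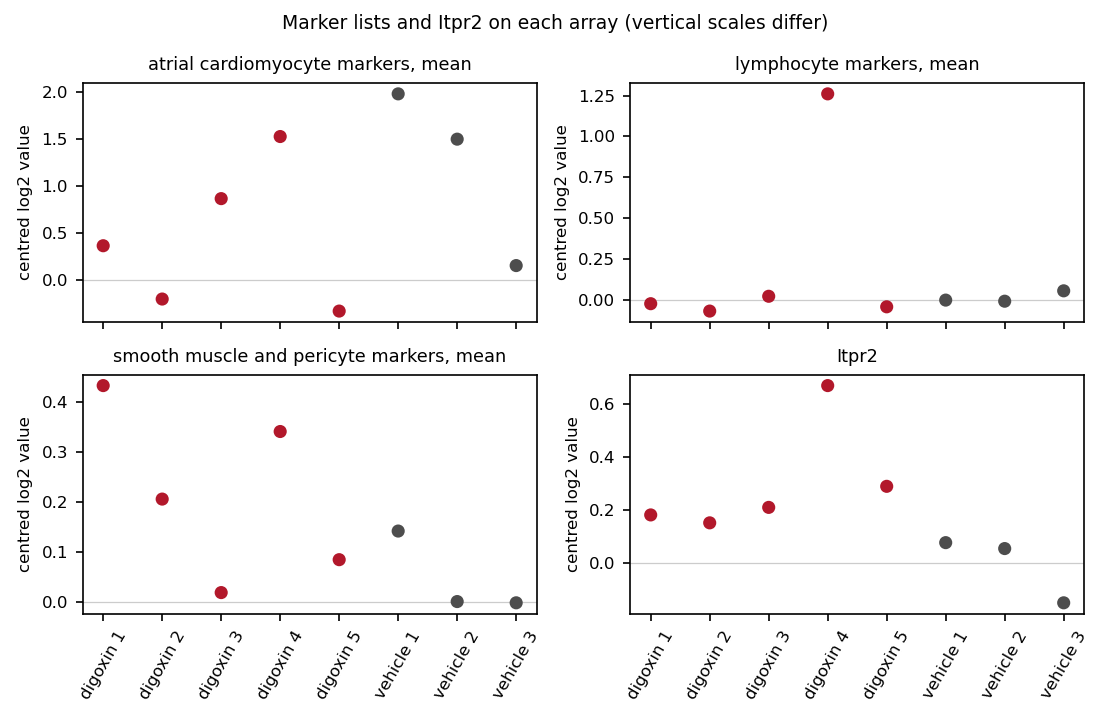
Mean centred log2 value of the atrial, lymphocyte, and smooth muscle and pericyte marker lists, and the value of Itpr2, on each of the 5 digoxin (red, left) and 3 vehicle (grey, right) arrays, with vertical scales that differ. Digoxin replicate 4 holds the highest lymphocyte mean, at 1.26, and the highest Itpr2 value, at 0.67.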

How the data were processed

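The authors deposited log2 values for 34351 probe sets on 8 arrays. Per the series design text, raw arrays were normalised by Robust Multi-array Average in the Galaxy suite GIANT, and the submitters' processing notes name limma. Their versions are not stated there. The authors' log2 values were centred, probe set by probe set, on a constant that is not stated, taken to cancel between arrays, and the log base is taken from that method. A signal over background and a filter on dim genes cannot be had from them.

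Gene names came from the platform annotation, in which 23521 probe sets had 1 symbol, 1814 several and 9016 none, and 23328 matched RefSeq by Entrez identifier. Probe sets with 1 symbol were averaged for each gene, which gave 22180 genes. Digoxin (5 arrays) and vehicle (3 arrays) were compared with limma 3.58.1 under R 4.3.3 (lmFit, then eBayes, two-sided, Benjamini-Hochberg over all genes, threshold 0.05), with 6 residual and 2.75 prior degrees of freedom. The fit was tested on simulated data, in which each gene had the same spread on every array. The wider spread of vehicle replicate 3 was not simulated. Groups came from the labels, each array is taken as 1 mouse, and p values measure only the spread between these samples, which may be technical. Array numbers in the labels put vehicle first, so treatment and the order of the arrays cannot be told apart. No arrays were duplicates. The number of arrays limits the precision.

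The 36 genes, the 10 pathway lists and the 12 marker lists were chosen with earlier results of these data known. Values on every array are given for the measured genes among 10 picked for their roles, and for the 10 of smallest p. Calm2 and Itpr1, among those picked, were not measured. Pathway genes are named if they passed or were among the 2 of smallest p in a list. Among the lists, Irag1 was matched under its older symbol, Mrvi1. Alternatives covered normalization, probe sets, genes tested, variance model, array weights, replicate block, threshold, arrays left out and marker covariates. Promoter windows are from RefSeq on GRCm38.p6.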

Additional observations from a re-analysis of the deposited data

Results flagged for a closer look

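In 3 of the 33 genes a single digoxin array lay far from the other 4, by Dixon's criterion. For normally distributed values, chance marks about 1 in 20 groups in this way. The share over all genes was not computed, so nothing particular to the calcium genes is read from this count. Itpr2 had 0.67 on digoxin replicate 4, against 0.15 to 0.29 on the other digoxin arrays. Atp2a3 had 0.49 on the same array, against -0.033 to 0.093 on the other digoxin arrays. Orai1 had -0.33 on digoxin replicate 1, against -0.018 to 0.034 on the other digoxin arrays. The vehicle group holds 3 arrays and was not examined in this way.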

How the results depend on the processing

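The count of calcium genes that passed, 2 with all arrays, was 1 with robust variance estimation (Rcan2), 0 with the replicate block by title or by description number, 1 without digoxin replicate 4 and vehicle replicate 3 together (Rcan2), 1 with the atrial covariate (Stim1) and 0 with the smooth muscle covariate. With 1 array left out it was 0 to 1. Over all genes the count was 302, and it became 614 with array weights, 12 with the replicate block, 7 with the block of description numbers, 500 without those 2 arrays together, 493 at a threshold of 0.1 and 120 with the smooth muscle covariate, and 166 to 374 with 1 array left out. The count of other pathway genes, 1 with all arrays, was 2 with quantile normalization, with arrays centred on their median difference, with protein-coding genes alone, at a threshold of 0.1 and with the atrial covariate. It was 3 with array weights, 3 without those 2 arrays together, 0 with either replicate block, and 0 to 2 with 1 array left out. The median over the calcium genes moved by less than the spread between arrays, with 0.0019 to 0.030 when 1 array was left out. The difference Jph2 minus Ryr2 ran from -0.30 to -0.15 in those fits. No alternative took a gene pair past its threshold, but with so few arrays 1 pair alone could not pass after adjustment over 4 pairs.

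Replicates are numbered as in the titles, and the array descriptions number them differently. Deviations of same-numbered arrays correlated at -0.20, -0.018 and 0.024 by title and at -0.15, 0.042 and 0.018 by description. The second set was added after the data were seen. Arrays of different description numbers correlated at -0.20 to 0.19. With so few arrays, these values do not decide whether the samples were paired. With the title number as a block, Rcan2 stood at 0.29 (adjusted p = 0.372 in limma), Stim1 at 0.30 (adjusted p = 0.486) and Tmem38b at 0.44 (adjusted p = 0.277). In either block fit, digoxin arrays without a vehicle array of the same number add nothing to the estimated change. Fewer residual degrees of freedom are left than in the main fit, so the lost calls do not decide whether the samples were paired.

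Some genes that did not pass changed sign by more than 1 SE. With array weights, Atp2a3 stood at -0.083, Sri at -0.075, Camk2a at 0.024 and Atp2c1 at -0.017. With 1 array left out, the values ran from -0.029 to 0.26 for Atp2a3, from -0.086 to 0.12 for Sri, from -0.13 to 0.13 for Camk2g and from -0.052 to 0.15 for Atp2c1, each lowest without vehicle replicate 3. Without vehicle replicate 3 and digoxin replicate 4, the values were -0.13 for Atp2a3, 0.014 for Asph, -0.12 for Sri, 0.031 for Camk2a, -0.0996 for Camk2g and -0.038 for Atp2c1. With the smooth muscle covariate Hrc stood at 0.087 and Camk2b at 0.12. The cause of these shifts was not tested. The filter on dim probe sets was not run, since centred values hold no level.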
